A study of Mus musculus with 24 samples.

Results

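Chemokine receptors are heptahelical G protein-coupled receptors by which leukocytes read gradients of small secreted proteins, the chemokines, and move along them or arrest on vessel walls. Ligand binding activates Gi proteins, phosphoinositide 3-kinase gamma and Rac GTPases, and receptor kinases and arrestins then end the signal. In the mammary gland, macrophages and eosinophils drawn in by chemokines surround the growing ducts, and T cells, dendritic cells and B cells patrol the epithelium and the fat pad. The expression of 9 receptor genes, Ccr1, Ccr2, Ccr3, Ccr4, Ccr7, Cxcr3, Cxcr4, Cxcr5 and Cx3cr1, was followed in mouse mammary glands after low-dose ionizing radiation (LDIR). Every probe that carried the name of one of these genes in the array design was taken, which gave 10 of the 55681 probes and 9 of the 34797 gene names on the array. Cx3cr1 had 2 probes and is given by the one with the higher mean level, with the second beside it.

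The study asked how genetic background shapes the response of the mammary gland to LDIR. Female BALB/c mice, an inbred strain sensitive to radiation-induced mammary cancer, and SPRET/EiJ mice, an inbred strain of the wild species Mus spretus, received a single whole-body X-ray dose of 10 cGy or a sham exposure (0 cGy) at 8 to 9 weeks of age. Glands were collected 2, 4 and 8 weeks later from BALB/c and 4 weeks later from SPRET/EiJ, and total RNA of the whole frozen tissue was hybridised to one-colour Agilent arrays. This gave 8 groups of 3 arrays, A to C, 24 arrays in all: BALB/c sham and LDIR at 2, 4 and 8 weeks, and SPRET/EiJ sham and LDIR at 4 weeks. The replicates were called biological, but no animal numbers were given, so the p-values measure the spread between these samples. In whole tissue, fewer cells of a type and less RNA per cell cannot be told apart. The probes were designed on the reference mouse genome, so a sequence mismatch and a lower level in SPRET/EiJ cannot be told apart either.

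A level below is a probe's log2 processed signal set against the 75th percentile of all probes on its array, so that 0 is that percentile and each step of 1 is a doubling. Across the 24 arrays, between 57.2 and 72.7% of probes lay well above background (the scanner software's test of a spot against its surroundings), and the lowest share belonged to SPRET/EiJ LDIR array C. Levels of different probes are not set against each other, since probes differ in how brightly they bind. The 24 arrays lay on 3 slides. Slide 1 held all BALB/c arrays of 2 weeks and sham arrays A and B of 4 weeks. Slide 2 held sham array C and the 3 LDIR arrays of 4 weeks, the 3 sham arrays of 8 weeks and LDIR array A of 8 weeks. Slide 3 held LDIR arrays B and C of 8 weeks and all 6 SPRET/EiJ arrays, so strain at 4 weeks and slide cannot be told apart within the strain comparisons. The tissue label fitted its markers: 8 of 8 adipocyte and 11 of 11 mammary epithelium markers were well above background on every array.

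The genes were read by probes of 60 bases, whose place within the transcripts was not determined. The ends of the probes that carry the differences described below are shown as the last 30 bases on the coding strand, with mm9 coordinates and, where the bases hold it, the polyadenylation signal AATAAA in capitals.
Ccr1, chr9:123877790-123877819, minus strand: ctgtaacaaactaaagtttttctatccaat
Ccr3, chr9:123945255-123945284, plus strand: acaagaaaagtatatgatatcacacagaaa
Ccr4, chr9:114399467-114399496, minus strand: aacagttattcttacgttatcttaattgtt
Ccr7, chr11:99005551-99005580, minus strand: ttttgattcatatatcttttatgaagaaac
Cxcr5, chr9:44320071-44320100, minus strand: tatcctcattgcagaaccgtgaagacacct
Cx3cr1, probe used, chr9:119957811-119957840, minus strand: attctgtcAATAAAcattggtttccttcca
Cx3cr1, second probe, chr9:119959018-119959047, minus strand: ggtctcatttgcaggcttacattgaaagtt
The Ccr1 probe was poor in G and C, with 21.7% of its 60 bases, against 35% for Ccr4 and Ccr7, 38.3% for Ccr3 and 46.7% for Cxcr5. Of the 9 genes, 6 lie on chromosome 9 (Ccr1, Ccr2, Ccr3, Ccr4, Cx3cr1 and Cxcr5), Ccr7 on chromosome 11, Cxcr4 on chromosome 1 and Cxcr3 on chromosome X.

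Promoter sequence from RefSeq was matched for 7 of the 9 genes. The 250 bases before the transcription start (GRCm38.p6, on the coding strand) are shown for Cxcr4, Cxcr3 and Ccr4, 3 of the 5 receptors that were high together on the 3 arrays described below. Capitals mark matches on either strand to the ETS core AGGAAG, the kappaB form (GGG and CC with 5 bases between them), the GC box GGGCGG and the TATA box TATAAA.
Cxcr4, chr1:128592300-128592549, minus strand: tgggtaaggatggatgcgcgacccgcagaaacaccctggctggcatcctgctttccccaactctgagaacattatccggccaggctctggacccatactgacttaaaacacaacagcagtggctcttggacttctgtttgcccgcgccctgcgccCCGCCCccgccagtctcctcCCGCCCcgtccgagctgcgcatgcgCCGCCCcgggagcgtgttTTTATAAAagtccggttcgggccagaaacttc
Cxcr3, chrX:101734148-101734397, minus strand: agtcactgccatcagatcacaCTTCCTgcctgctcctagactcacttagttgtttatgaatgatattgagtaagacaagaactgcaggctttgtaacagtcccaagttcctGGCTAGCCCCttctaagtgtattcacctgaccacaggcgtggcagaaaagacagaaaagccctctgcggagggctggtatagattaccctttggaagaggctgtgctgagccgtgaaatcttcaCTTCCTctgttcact
Ccr4, chr9:114496545-114496794, minus strand: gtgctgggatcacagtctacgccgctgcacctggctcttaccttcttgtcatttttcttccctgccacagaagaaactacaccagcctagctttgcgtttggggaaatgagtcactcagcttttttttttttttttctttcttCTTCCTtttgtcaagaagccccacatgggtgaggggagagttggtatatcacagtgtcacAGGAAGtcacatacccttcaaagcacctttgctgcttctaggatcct
Cxcr4, with 61.2% G and C in this window, held 3 GC boxes and 1 TATA box whose matches on both strands overlap. The ETS core, which has 2 matches each in Cxcr3 and Ccr4, was in 2 of the 7 promoters and in 29.5% of all 32851 RefSeq promoter windows of this length. The kappaB form was in 4 of 7 (Ccr1, Ccr3, Cx3cr1 and Cxcr3) and in 45.8% of all, the GC box in 1 of 7 and in 32.7% of all, and the TATA box in 1 of 7 and in 12.4% of all. The octamer ATTTGCAT was in none of the 7 and in 1.6% of all. These matches are letters only and say nothing of factor binding.

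On 3 arrays, several receptors that guide lymphocytes stood far above the rest: BALB/c sham 8 weeks A, BALB/c LDIR 8 weeks B and SPRET/EiJ LDIR 4 weeks A. These arrays were set apart after their values were seen, by a summed linear level of 11 B cell markers of more than 5 times the median array. That sum was 144 to 170.8 on the 3 arrays and at most 30.4 on the other 21. The sum of 14 T cell markers was 182 to 248 there and 11.9 to 22.9 elsewhere, with all 14 well above background in every BALB/c group. The sum of 9 lymph node organisation markers, which include Ccl19 and Cxcl13, was 104 to 147 there and 1.41 to 16.1 elsewhere. Cr2 is in both this list and the B cell list, and without it the sum was 79.0 to 131.1 there and 1.20 to 3.39 elsewhere. Adipocyte markers went the other way, with a sum of 1100 to 1270 there and 1630 to 3600 elsewhere. A lymph node lies within the inguinal mammary fat pad of the mouse, and the labels do not say which gland was taken. The part of lymphoid tissue in the results below was not tested. Results that turn on these arrays are therefore given with and without them.

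Of the 9 receptors, Ccr4, Ccr7, Cxcr3, Cxcr4 and Cxcr5 were higher on each of the 3 arrays than on any of the other 21, which 5.22% of all probes did. Ccr7, which brings T cells and dendritic cells into lymph nodes, was at 4.57 on BALB/c sham 8 weeks A, 5.25 on BALB/c LDIR 8 weeks B and 4.78 on SPRET/EiJ LDIR 4 weeks A. On the other 21 arrays Ccr7 lay between -3.25 and -1.06. Cxcr5, which places B cells in follicles, was at 2.32, 2.00 and 2.14 on the same arrays in that order, and between -8.09 and -2.32 elsewhere. Cxcr4, the receptor that retains leukocytes where CXCL12 is made, was at 1.29, 1.43 and 2.39 there and between -2.63 and -0.73 elsewhere. Cxcr3, carried by effector T cells and NK cells, was at 1.37, 1.79 and 2.06 there and between -2.25 and -0.43 elsewhere. Ccr4, carried by Th2 and regulatory T cells, was at -1.91, -2.51 and -3.36 there and between -6.63 and -4.39 elsewhere. Ccr1, Ccr2, Ccr3 and Cx3cr1, the receptors of monocytes, macrophages and eosinophils, lay within or overlapped the range of the 21 arrays. Each of the 3 arrays belonged to another group. The 2 other arrays of each group were not high, apart from Cxcr5 on BALB/c sham 8 weeks C, at -2.32 and well above background.

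**Figure D1:**
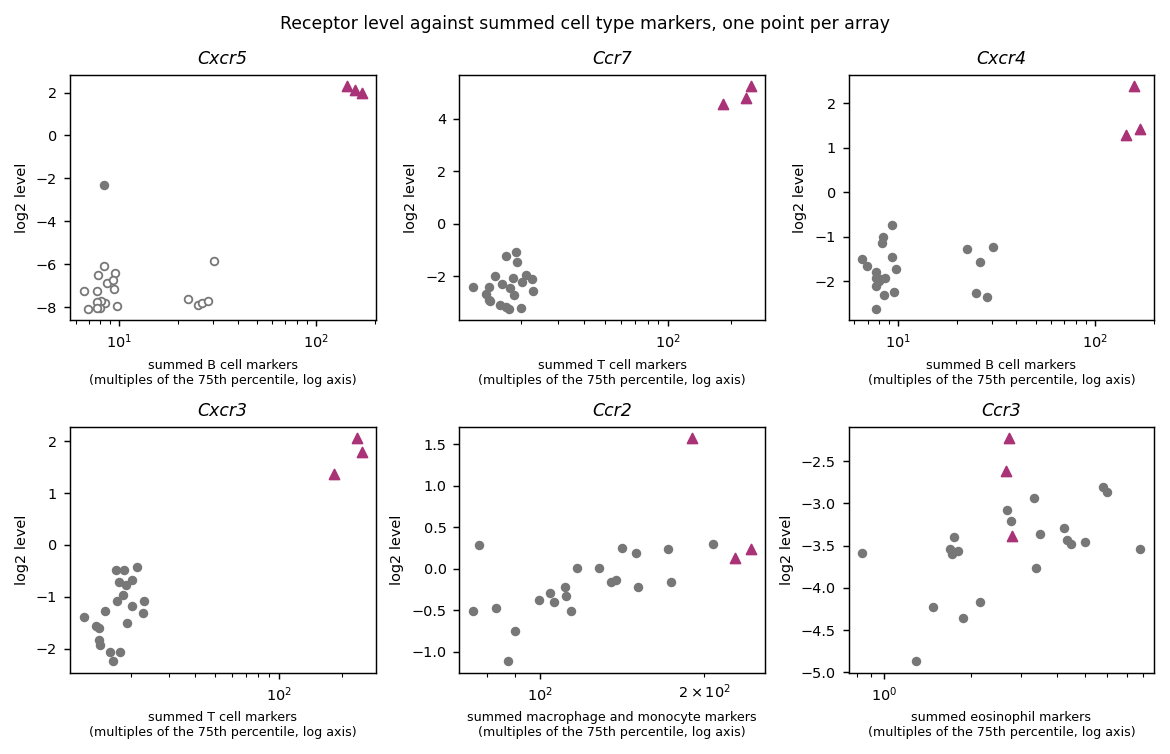
The log2 level of 6 receptors (y axis) is plotted against the summed linear level of a marker list in multiples of the 75th percentile (x axis, log scale), with 1 point per array, hollow where the probe was not well above background. The 3 arrays of high B cell markers (triangles) stand apart at the upper right for Cxcr5, Ccr7, Cxcr4 and Cxcr3. For Ccr3, BALB/c sham 8 weeks A (-2.23) and SPRET/EiJ LDIR 4 weeks A (-2.61) are above the highest of the other 21 arrays (-2.81). BALB/c LDIR 8 weeks B lies among those 21 for Ccr3, at -3.38. For Ccr2, SPRET/EiJ LDIR 4 weeks A is the highest array at 1.58.

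Several ligands of these receptors were high on the same arrays. Ccl19, a ligand of CCR7, was at 1.60 to 2.81 on the 3 arrays and at -2.57 to -0.14 on the other 21. Cxcl13, the ligand of CXCR5, was at 1.57 to 5.21 there and at -4.03 to 0.35 elsewhere. Both CCR4 ligands were high as well, Ccl17 at -1.41 to 1.36 against -4.06 to -1.51 and Ccl22 at -2.76 to -1.21 against -8.10 to -5.88. In all, 5 of the 19 ligands measured were above the 21 arrays, the fifth being Ccl5, a ligand of CCR1 and CCR3, at 6.14 to 6.82 against -0.19 to 2.62. Of 15 other chemokine receptors, 6 were above, among them Ccr6, the receptor of B cells and Th17 cells, at 3.33 to 4.05 against -5.40 to -2.12. Of 32 genes of receptor signalling 18 were above and 1 below.

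Ccr7 had its highest group mean in BALB/c LDIR at 8 weeks (0.86 ± 3.81, SD, n = 3) and its lowest in SPRET/EiJ sham (-3.04 ± 0.28). At 2 weeks the sham arrays were at -2.95, -2.69 and -3.09 and the LDIR arrays at -2.41, -2.46 and -2.32, so that every LDIR array was above every sham array. The difference of 0.51 (unadjusted p = 0.018, limma) was under the fold threshold of 1.5, and Ccr7 was not called. At 4 weeks the sham arrays were at -2.91, -1.06 and -2.57 and the LDIR arrays at -2.22, -2.09 and -2.11, with the LDIR values inside the range of the sham values. At 8 weeks the sham arrays were at 4.57, -2.01 and -2.43 and the LDIR arrays at -1.23, 5.25 and -1.45, and each group held 1 array of high B cell markers. The 8-week difference was 0.81 with a standard error (SE) of 2.60 over all 6 arrays. Without those 2 arrays it was 0.88 (SE 0.24, unadjusted p = 0.019, adjusted p = 0.97, limma) and passed the threshold, with 2 arrays left in each group. In SPRET/EiJ the sham arrays were at -3.20, -2.72 and -3.20 and the LDIR arrays at 4.78, -3.25 and -1.97. That difference of 2.89 (SE 1.90) came down to 0.42 (SE 0.43) without LDIR array A.

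Cxcr5 was well above background on 4 arrays only, the 3 arrays of high B cell markers and BALB/c sham 8 weeks C at -2.32. On the other 20 arrays it was not well above background, and differences there have no fold. At 2 weeks it passed the threshold with a mean of -6.84 in LDIR against -7.87 in sham, but no array of either group was well above background. Between sham glands of 8 and 4 weeks it differed by 5.29 with an SE of 2.24 and did not pass, and without sham 8 weeks A by 2.94 (SE 1.38).

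Cxcr4 had group means between -2.27 ± 0.35 in BALB/c LDIR at 2 weeks and -0.20 ± 1.30 in BALB/c sham at 8 weeks. Sham arrays were at -1.66, -2.31 and -1.96 at 2 weeks, at -1.99, -1.51 and -1.78 at 4 weeks and at 1.29, -0.73 and -1.14 at 8 weeks. All 3 sham arrays of 8 weeks were thus above all 3 of 4 weeks. The difference of 1.57 between 8 and 4 weeks did not pass (unadjusted p = 0.053, limma), whereas without sham 8 weeks A it was 0.82 (SE 0.24, unadjusted p = 0.018, adjusted p = 0.14, limma) and passed. LDIR arrays were at -2.63, -2.25 and -1.93 at 2 weeks, at -1.92, -1.73 and -2.11 at 4 weeks and at -1.45, 1.43 and -1.02 at 8 weeks, and in none of these weeks did Cxcr4 pass against sham. In SPRET/EiJ the difference of 1.36 (SE 1.12) became -0.02 (SE 0.46) without LDIR array A.

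Cxcr3 increased from 2 to 4 weeks in sham BALB/c glands. Sham arrays were at -1.93, -1.57 and -2.07 at 2 weeks, and at -1.60, -0.77 and -1.08 at 4 weeks, and the groups overlapped by a small margin, since array A of 4 weeks was below array B of 2 weeks. The increase was 0.71 (SE 0.27, unadjusted p = 0.036, adjusted p = 0.99, limma) and did not pass when 2-week sham A or C or 4-week sham B or C was left out (0.52 to 0.93 over the 6 arrays left out in turn), nor in 5 of 10 other settings (0.51 to 0.71). Cxcl10, the ligand of CXCR3 induced by interferon, rose as well between these sham groups, by 1.51 (SE 0.39, unadjusted p = 0.0074, adjusted p = 0.99, limma). LDIR arrays of Cxcr3 were at -1.83, -2.07 and -2.25 at 2 weeks, at -1.18, -0.97 and -1.31 at 4 weeks, and at -1.08, 1.79 and -1.50 at 8 weeks, and overlapped sham at each time. SPRET/EiJ sham arrays were at -0.48, -0.48 and -0.68, above all 3 BALB/c sham arrays of 4 weeks. The strain difference was -0.60 (unadjusted p = 0.047, adjusted p = 0.15, limma) and did not pass the threshold for strains. SPRET/EiJ LDIR arrays were at 2.06, -0.71 and -0.43.

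Ccr4 was well above background on 14 of 24 arrays. At 4 weeks in BALB/c the sham arrays were at -6.23, -5.50 and -5.45, with 1 of 3 well above background, and the LDIR arrays at -5.08, -4.72 and -4.39, with 3 of 3. Every LDIR array was above every sham array, and Ccr4 was higher by 0.99 (SE 0.29, unadjusted p = 0.012, adjusted p = 0.76, limma). It did not pass with normexp background correction (0.11), nor in one fit of all 24 arrays (0.99, unadjusted p = 0.31), nor with slide as a term in that fit (0.72). At 2 weeks the sham arrays were at -5.51, -5.45 and -5.73 and the LDIR arrays at -5.58, -6.30 and -5.47, and the groups overlapped. The change at 4 weeks exceeded that at 2 weeks by 1.21 (SE 0.40, unadjusted p = 0.012, adjusted p = 1.00, limma). This difference was 0.17 with normexp background correction and, like the change at 4 weeks, did not pass in the fits of all 24 arrays with or without slide. At 8 weeks the sham arrays were at -1.91, -6.25 and -5.95 and the LDIR arrays at -5.19, -2.51 and -5.65. In SPRET/EiJ the sham arrays were at -6.02, -5.19 and -5.15 and the LDIR arrays at -3.36, -5.85 and -6.63, so that apart from array A the LDIR arrays were at or below 2 of the 3 sham arrays. With all arrays Ccr4 differed between strains by 0.55 in LDIR glands (adjusted p = 0.70, limma). Array A, set apart after its values were seen, was the 1 SPRET/EiJ LDIR array with Ccr4 well above background. Without array A, Ccr4 was 1.51 higher in LDIR BALB/c glands (adjusted p = 0.035, limma), with 3 arrays against 2. Of those left, array C had the lowest share of probes well above background in the series. The test of the LDIR change between strains passed as well without array A (unadjusted p = 0.0059, adjusted p = 0.73, limma). The sizes of both differences rest on SPRET/EiJ values not well above background, and with all arrays neither passed. Ccl17, a ligand of CCR4, was lower in BALB/c LDIR than in sham glands at 4 weeks, by a log2 change of -0.95 (SE 0.30, unadjusted p = 0.016, adjusted p = 0.78, limma).

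Ccr1, the receptor of monocytes, macrophages and neutrophils for CCL3, CCL5, CCL6 and CCL9, was well above background on 4 of the 24 arrays, and these were BALB/c LDIR 4 weeks A and C, BALB/c sham 8 weeks C and BALB/c LDIR 8 weeks A. All 4 lay on slide 2. At 4 weeks the sham arrays were at -7.16, -7.51 and -7.58, none well above background, and the LDIR arrays at -4.68, -5.54 and -4.90, with 2 of 3 well above background. On LDIR array A, the brightest for Ccr1, the negative control spots had a mean processed signal of 302.5, against 1.7 to 5.5 on the other arrays of the series. What this does to dim probes was not tested. All 3 LDIR arrays were above all 3 sham arrays by a wide margin, and sham array C, on the same slide as the 3 LDIR arrays, was the lowest of the sham arrays. The difference was 2.38 (SE 0.27, unadjusted p = 7.8e-05, adjusted p = 0.33, limma). Sham was not well above background, so its level was replaced on each array by the dimmest signal well above background or the probe's own, whichever was higher. The probe's own signal was the higher on each sham array, and the fold stayed at 5.20. This is the plain ratio and sets no lower limit on the fold. With another background correction (normexp, on the mean and background signals), the difference was 0.17 and did not pass.

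Ccr1 passed the LDIR test neither at the other times nor in SPRET/EiJ. At 2 weeks the sham arrays were at -7.94, -7.59 and -7.33 and the LDIR arrays at -6.51, -8.01 and -7.69, none well above background. At 8 weeks the sham arrays were at -6.65, -5.86 and -5.25 and the LDIR arrays at -5.28, -7.07 and -7.39, with LDIR arrays B and C on slide 3. In SPRET/EiJ the sham arrays were at -7.05, -7.50 and -7.61 and the LDIR arrays at -7.95, -7.72 and -6.50, none well above background. The LDIR change at 4 weeks in BALB/c exceeded that in SPRET/EiJ by 2.38 (SE 0.53, unadjusted p = 0.00086, adjusted p = 0.96, limma). It exceeded the change at 2 weeks by 2.16 (SE 0.52, unadjusted p = 0.0019, adjusted p = 1.00, limma), and the change at 8 weeks differed from it by -3.04 (SE 0.76, unadjusted p = 0.0024, adjusted p = 0.99, limma), or by -3.16 without the arrays of high B cell markers. With normexp background correction these differences were 0.32, 0.12 and -0.24, and none passed. Between sham glands of 4 and 8 weeks Ccr1 increased by 1.497 (SE 0.40, unadjusted p = 0.0094, adjusted p = 0.20, limma), or 2.82-fold as a plain ratio that again sets no lower limit, with 1 of 3 arrays well above background at 8 weeks. This increase did not pass with quantile normalisation (1.13), and with normexp background correction the direction turned (-0.23). Without sham 8 weeks A this increase was 1.86 (SE 0.27, adjusted p = 0.044, limma). In LDIR glands of 4 weeks Ccr1 was 2.35 higher in BALB/c than in SPRET/EiJ (SE 0.45, adjusted p = 0.021, limma), or 4.96-fold with the SPRET/EiJ levels replaced by the same rule. No SPRET/EiJ LDIR array was well above background, and in sham glands neither strain was. That difference did not keep an adjusted p under 0.05 without BALB/c LDIR A, B or C or SPRET/EiJ LDIR B (2.07 to 2.79 over the 6 arrays left out in turn). Over 10 other settings it ran from 0.33 to 2.35, and 7 of them kept an adjusted p under 0.05.

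Ccr1l1, a paralogue beside Ccr1 on the chromosome whose probe shares no run of more than 7 bases with the Ccr1 probe, moved with it. Its sham arrays of 4 weeks were at -5.58, -7.08 and -5.05 and its LDIR arrays at -3.59, -4.51 and -4.08, an increase of 1.84 (SE 0.54, unadjusted p = 0.013, adjusted p = 0.76, limma). Ccl6, a ligand of CCR1, was at 4.06, 3.31 and 3.70 in sham and 5.02, 4.32 and 4.84 in LDIR at 4 weeks, an increase of 1.04 (SE 0.28, unadjusted p = 0.0084, adjusted p = 0.72, limma). Ccl9, another ligand of CCR1, was at 2.83, 1.93 and 2.21 in sham and 3.48, 2.83 and 3.22 in LDIR, an increase of 0.85 (SE 0.29, unadjusted p = 0.025, adjusted p = 0.78, limma), though its lowest LDIR array was just under its highest sham array. At 8 weeks Ccl9 changed the other way, by -0.93 (SE 0.31, unadjusted p = 0.025, adjusted p = 1.00, limma). The sum of 12 macrophage and monocyte markers, all well above background, was 116.9 to 150.1 in LDIR and 77.5 to 106.3 in sham glands of 4 weeks and did not overlap between the groups. The sum of 7 neutrophil markers went the other way without overlap, at 122.1 to 136 in LDIR and 141.7 to 174.6 in sham glands of 4 weeks. The part of macrophage or neutrophil markers in the change of Ccr1 and its ligands was not tested.

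Ccr2, the receptor of inflammatory monocytes for CCL2, was well above background on all 24 arrays and passed the threshold in none of the 12 comparisons. Group means ran from -0.58 ± 0.47 in BALB/c LDIR at 2 weeks to 0.57 ± 0.90 in SPRET/EiJ LDIR. At 4 weeks the BALB/c sham arrays were at -0.38, 0.29 and -0.40 and the LDIR arrays at 0.19, 0.25 and 0.015, inside the range of sham. The SPRET/EiJ LDIR arrays were at 1.58, -0.17 and 0.30, the first of them the array of high B cell markers. The difference from sham in SPRET/EiJ was 0.62 with that array and 0.11 without it. Ccl2 itself increased by 0.95 between sham glands of 2 and 4 weeks (SE 0.35, unadjusted p = 0.034, adjusted p = 0.99, limma).

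The LDIR change of Cx3cr1, the fractalkine receptor of resident macrophages and patrolling monocytes, differed between 4 and 8 weeks in BALB/c. At 4 weeks the sham arrays were at -0.88, -0.75 and -0.73 and the LDIR arrays at -0.99, -1.70 and -1.25, every LDIR array below every sham array. The difference of -0.53 (SE 0.22, unadjusted p = 0.0495, limma) was just within the p threshold and under the fold threshold, and with the second probe it was -0.41 (unadjusted p = 0.052). At 8 weeks the sham arrays were at -0.79, -0.27 and -1.01 and the LDIR arrays at 0.012, -0.11 and -0.30, higher by 0.56 (unadjusted p = 0.094) and not called. The change at 8 weeks exceeded that at 4 weeks by 1.08 (SE 0.35, unadjusted p = 0.011, adjusted p = 0.99, limma), and by 1.02 (unadjusted p = 0.030, limma) without the arrays of high B cell markers. It did not pass in one fit of all 24 arrays (1.08, unadjusted p = 0.19, limma), nor with slide as a term in that fit. Of 11 other settings, these included, 9 kept the call, at 0.89 to 1.29 over all 11. The second probe gave 1.03 (SE 0.43, unadjusted p = 0.035, adjusted p = 0.99, limma). That value did not pass when any of 8 of the 12 arrays was left out.

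In sham BALB/c glands Cx3cr1 increased between 2 weeks, at -1.26, -1.16 and -1.38, and 4 weeks, without overlap. This increase was 0.48 (unadjusted p = 0.021, under the fold threshold) by the first probe and 0.60 (SE 0.18, unadjusted p = 0.014, adjusted p = 0.99, limma) by the second, which passed. The second probe's call held in 6 of 15 alternatives, and it was lost without sham 2 weeks A or C or sham 4 weeks A or B and with normexp background correction (0.29). SPRET/EiJ sham arrays were at -1.37, -3.29 and -1.97 and lay below all 3 BALB/c sham arrays of 4 weeks. The difference of 1.42 (SE 0.48, adjusted p = 0.092, limma) and that of the second probe, 2.32 (SE 0.68, adjusted p = 0.063), did not pass. SPRET/EiJ LDIR arrays were at 0.58, -2.09 and -2.49, with array A above every BALB/c array, and the second probe was not well above background on SPRET/EiJ sham B and LDIR C.

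Ccr3, the eotaxin receptor of eosinophils, was well above background on all 24 arrays and higher in LDIR than in sham glands at 2 weeks in BALB/c. Its sham arrays were at -4.87, -4.17 and -4.23 and its LDIR arrays at -3.56, -3.60 and -3.58, all 3 above the sham arrays and within a narrow range. The difference was 0.84 (SE 0.22, unadjusted p = 0.0077, adjusted p = 0.89, limma), and these 6 arrays were on 1 slide. Of all 55681 probes, 2787 had an unadjusted p under 0.05 (limma) between these groups. With normexp background correction the Ccr3 difference was 0.24 and did not pass. The sum of 6 eosinophil markers did not move with Ccr3, at 0.84 to 1.80 in LDIR and 1.29 to 2.15 in sham. Of these markers Epx, which encodes eosinophil peroxidase, was well above background on no array.

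At 4 weeks the Ccr3 sham arrays were at -3.54, -4.36 and -3.40 and the LDIR arrays at -3.43, -3.07 and -2.94, higher by 0.62 (unadjusted p = 0.081) with overlap and not called. The eosinophil sum there was 2.67 to 4.32 in LDIR and 1.70 to 1.88 in sham, and its part in the Ccr3 levels was not tested. At 8 weeks the sham arrays were at -2.23, -2.86 and -3.36 and the LDIR arrays at -3.76, -3.38 and -3.21, with sham mostly higher. The change at 8 weeks differed from that at 4 weeks by -1.25 (SE 0.49, unadjusted p = 0.027, adjusted p = 0.99, limma). It did not pass without the arrays of high B cell markers (-0.99, unadjusted p = 0.068) nor when any of 5 of the 12 arrays was left out (sham 4 weeks B, LDIR 4 weeks B or C, sham 8 weeks A, LDIR 8 weeks A; -1.52 to -0.95 over all 12). In SPRET/EiJ the sham arrays were at -3.29, -3.54 and -3.48 and the LDIR arrays at -2.61, -3.46 and -2.81, with overlap.

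**Figure D2:**
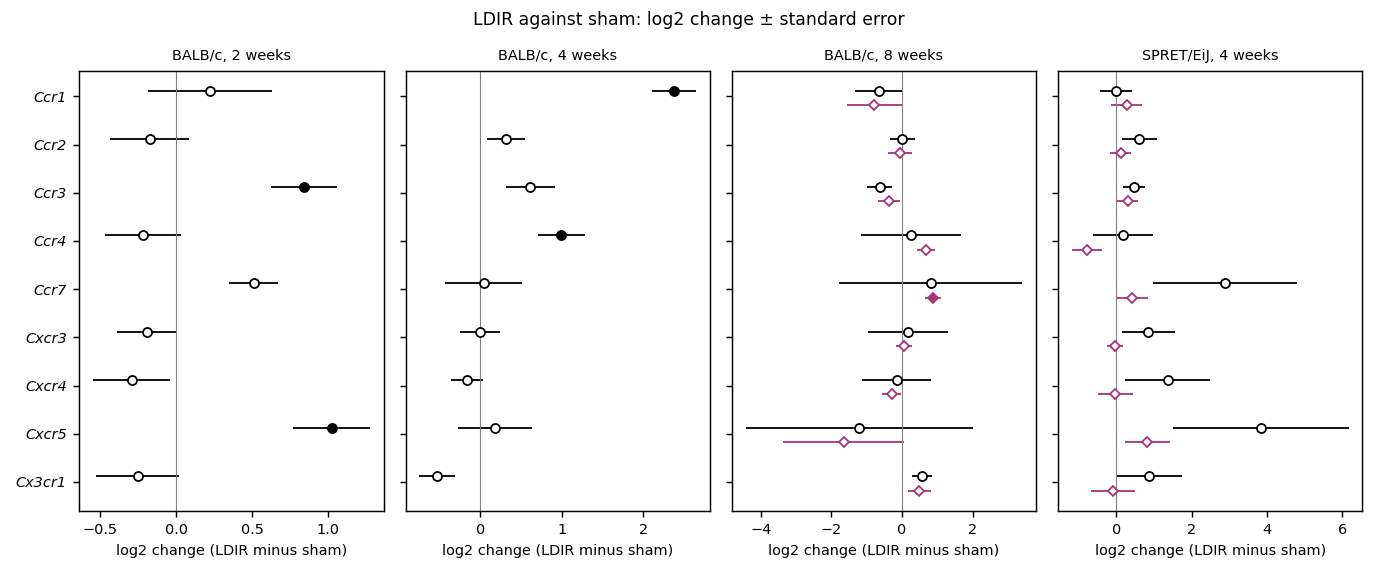
The log2 change, LDIR minus sham, with its standard error (x axis, different scale in each panel) is shown for the 9 receptors, from all arrays (black circles) and without the 3 arrays of high B cell markers (purple diamonds), filled where the threshold was passed. Those arrays are absent from the BALB/c comparisons of 2 and 4 weeks. The wide error bar of Ccr7 at 8 weeks (SE 2.60) narrows to 0.24 without them, and Ccr1 at 4 weeks stands at 2.38.

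By the thresholds of the study's methods, more than 1.5-fold with an unadjusted p under 0.05 (under 0.001 for strains), few of the 9 genes were called after LDIR. In BALB/c at 2 weeks 2 of 9 were higher (Ccr3 and Cxcr5), with 3.13% of all probes called. At 4 weeks 2 of 9 were higher (Ccr1 and Ccr4), with 4.78% called. At 8 weeks 0 of 9 were called, with 1.8% of probes called, and in SPRET/EiJ 0 of 9, with 2.2%. Leaving out 1 array gave 1 call at 8 weeks, Cx3cr1 without sham B or Ccr1 without LDIR A, and 3 calls in SPRET/EiJ without LDIR B (Ccr3, Ccr7 and Cxcr5). Over the BALB/c times together 0 of 9 were called, with 1.08%. No probe of any gene had an adjusted p under 0.05 in these comparisons, while 1033 to 3392 had an unadjusted p under 0.05 at single times or in SPRET/EiJ. The groups did not overlap for 3 of 9 genes at 2 weeks (11.6% of all probes), 3 of 9 at 4 weeks (12.2%) and 0 of 9 at 8 weeks (4.84%) and in SPRET/EiJ (5.85%). The median change of the 9 genes was -0.18 at 2 weeks, 0.18 at 4 weeks, 0.0019 at 8 weeks and 0.86 in SPRET/EiJ, where 8 of 9 were higher, against 0.0044, 0.020, -0.14 and 0.042 over all probes. Without the arrays of high B cell markers the median was -0.05 at 8 weeks (0.0092 over all probes) and 0.11 in SPRET/EiJ (0.072 over all probes), where 5 of 9 were then higher. The groups then did not overlap for 2 of 9 genes at 8 weeks (32.3% of all probes, 2 arrays against 2) and 0 of 9 in SPRET/EiJ (14.5%).

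For differences between LDIR changes, 1 of 9 genes was called between the strains (Ccr1, with 3.53% of probes called), 2 of 9 between 4 and 2 weeks (Ccr1 and Ccr4, with 3.6%) and 3 of 9 between 8 and 4 weeks (Ccr1, Ccr3 and Cx3cr1, with 4.19%). The 4-week arrays enter all of these, so the calls share samples. Between the strains 4 genes were called without SPRET/EiJ LDIR B (Ccr1, Ccr7, Cxcr4 and Cxcr5) and 2 without SPRET/EiJ LDIR A (Ccr1 and Ccr4). Between sham glands, 1 of 9 was higher at 4 than at 2 weeks (Cxcr3, with 3.04% of probes called) and 1 of 9 at 8 than at 4 weeks (Ccr1, with 13.8%), the latter becoming 2 without sham 8 weeks A or B and 3 without sham 8 weeks C. The 8-week and 4-week sham groups did not overlap for 4 of 9 genes (23.4% of all probes), and the median difference of the 9 genes was 1.02 against 0.047 over all probes. Without sham 8 weeks A it was 0.15 against -0.21, with 5 of 9 higher, and 4 of 9 genes (50.3% of all probes) did not overlap. Sham arrays A and B of 4 weeks were on slide 1 and all sham arrays of 8 weeks on slide 2.

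Between strains 0 of 9 genes were called in sham glands (8.85% of probes) or in LDIR glands (5.67%). At an adjusted p under 0.05 it was 0 of 9 in sham (18.7% of probes) and 1 of 9, Ccr1, in LDIR (11.1%). Without SPRET/EiJ LDIR array A, Ccr1 and Ccr4 were under that adjusted p in LDIR glands. Strain groups did not overlap for 2 of 9 genes in sham (36.8% of all probes) and for 2 of 9 in LDIR (33.2%).

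**Figure D3:**
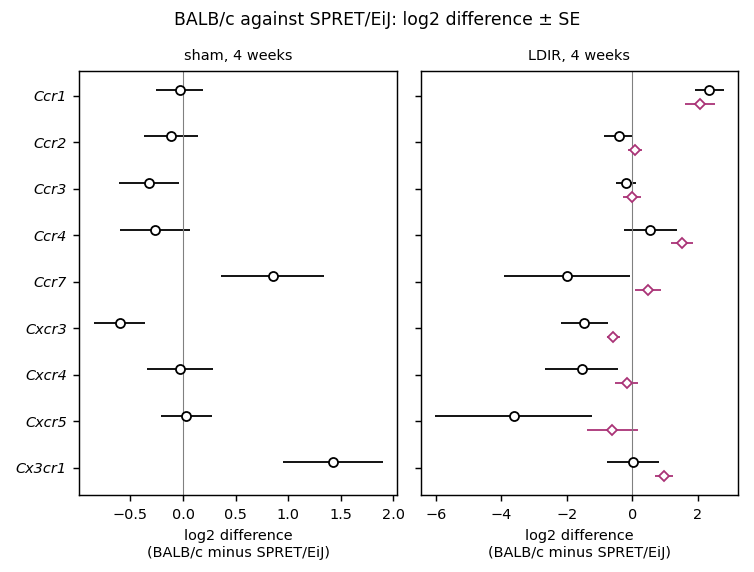
The log2 difference, BALB/c minus SPRET/EiJ, with its standard error (x axis) is shown for the 9 receptors in sham and LDIR glands of 4 weeks, from all arrays (black circles) and without SPRET/EiJ LDIR A (purple diamonds); hollow symbols did not pass the threshold for strains. Cx3cr1 lies to the right of 0 in sham glands (1.42) and Ccr1 in LDIR glands (2.35).

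The order of groups by mean level was not resolved for most receptors. Of the 7 pairs of groups next to each other in the order, none was free of overlap for Ccr1, Ccr2, Ccr3, Ccr4, Cxcr4 and Cxcr5, 1 for Ccr7 and Cx3cr1 and 2 for Cxcr3. The Ccr7 pair was BALB/c LDIR above sham at 2 weeks. The Cx3cr1 pair was BALB/c sham of 4 weeks above sham of 2 weeks. The Cxcr3 pairs were SPRET/EiJ sham above BALB/c sham of 4 weeks, and BALB/c LDIR of 4 weeks above BALB/c sham of 2 weeks.

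Among the ligands, 2 of 19 were higher after LDIR at 2 weeks, Ccl22 by 0.89, with 4 of 24 arrays well above background, and Cxcl10 by 0.60. At 4 weeks 3 of 19 were higher (Ccl6, Ccl9 and Ccl12) and 1 lower (Ccl17), at 8 weeks 1 lower (Ccl9), and in SPRET/EiJ none passed. Of 15 other chemokine receptors, 2 were higher at 4 weeks, Ccr1l1 and Cxcr1, a receptor of neutrophils, and none passed at 2 or 8 weeks or in SPRET/EiJ. Of 32 signalling genes, 3 were higher at 4 weeks, among them Dock8 by 0.70 and Rgs18 by 0.70, and none passed in the other LDIR comparisons. Dock8 encodes an exchange factor for Cdc42 and Rgs18 a regulator of G protein signalling. In sham glands Ccl6 was 4.05 higher in BALB/c than in SPRET/EiJ (adjusted p = 0.00031, limma) and Ccl19 differed by -1.89 (adjusted p = 0.0027, limma). Ccr1l1 differed between the strains in sham glands by -3.68 (adjusted p = 0.0097, limma), lower in BALB/c, in contrast to Ccr1, which was not well above background in either.

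The genes most like each receptor across arrays were sought among 14592 coding genes, by the correlation of levels after each group's mean was removed. Ccr7 was most like Hcst (r = 0.994), Cd3d (0.994) and Skap1 (0.993), over 24 arrays. Cxcr3 was most like Myo1g (0.992), Arhgap9 (0.99) and Snx20 (0.99), Cxcr4 most like Gramd1a (0.97), Gm4832 (0.969) and Ddx43 (0.968), and Ccr4 was like Gimap3 (0.957) and Chst3 (0.956). On the 21 arrays without high B cell markers these fell to 0.765 to 0.863 for Ccr7, 0.795 to 0.828 for Cxcr3, 0.602 to 0.736 for Cxcr4 and 0.518 to 0.748 for Ccr4. Ccr2 was most like Mndal (0.881), Nmi (0.872) and Jmjd1c (0.871), Ccr3 most like Gm7040 (0.805), Lyst (0.766) and Hpgds (0.763), and Cx3cr1 most like Cmpk2 (0.886), Stx3 (0.87) and Ninl (0.858). Hpgds encodes hematopoietic prostaglandin D synthase. The arrays share slides and tissue composition, and no test was made. Ccr1 and Cxcr5, well above background on 4 arrays each, were not ranked.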

How the data were processed

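Total RNA of mammary glands was hybridised to one-colour Agilent SurePrint G3 mouse arrays. The authors deposited each array's scanner output, whose processed signal is an intensity already background-corrected by the scanner software, and a table of log2 values normalised in GeneSpring to the 75th percentile of each array; the latter matched the values used here within 0.01 for 99.8% of entries after an offset per array. Here the log2 of the processed signal minus the array's 75th percentile was used, outlier spots (120 to 187 per array) were left out, and spots of a probe were averaged, which gave 55681 probes. Moderated tests were fitted over all probes of the groups compared with limma 3.58.1 in R 4.3.3, with Benjamini-Hochberg adjustment over all probes. Genes were called at the thresholds of the study's methods, whose unpaired t-test was run as an alternative. The number of arrays limits the precision. The fits were tested on simulated data.

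Each receptor was described, and given full statistics where it passed a comparison; the few other values named are there to complete a receptor's account. Of the ligand, receptor and signalling lists, called genes were counted and up to 3 with the largest change named (some genes are not reported here); Ccl12, Ccl22, Cxcr1 and the ligand and receptor values on the 3 arrays of high B cell markers were chosen after their values were seen. The members, lists and tests were chosen with earlier results of these data known. Same-lettered arrays deviated together at 2 weeks only (r = 0.166, 0.481 and 0.171 over 29342 probes). Alternatives were normexp background correction, quantile normalisation, the deposited log2 values, retention of outlier spots, a limit to detected probes, the mean of a gene's probes, all arrays in one fit, blocks for letter and slide, each array left out and, chosen after seeing the data, the 3 arrays of high B cell markers left out.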

Additional observations from a re-analysis of the deposited data

Results flagged for a closer look

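The LDIR change of 4 receptors differed between strains or times by a test of the difference itself, at an unadjusted p under 0.05 and over 1.5-fold, and with adjustment over all probes none of these differences kept a p under 0.05. For Ccr1 the change at 4 weeks was 2.38 greater in BALB/c than in SPRET/EiJ (adjusted p = 0.96, limma), 2.16 greater at 4 than at 2 weeks (adjusted p = 1.00), and the change at 8 weeks differed from that at 4 weeks by -3.04 (adjusted p = 0.99). With normexp background correction these were 0.32, 0.12 and -0.24 and were not called. For Ccr4 the change was 1.21 greater at 4 than at 2 weeks (adjusted p = 1.00, limma), and it was 0.17 and not called with normexp background correction. Between 8 and 4 weeks the change differed by -1.25 for Ccr3, by 1.08 for the Cx3cr1 probe used and by 1.03 for its second probe (adjusted p = 0.99 each, limma). In that order the calls held in 7 of 11, 9 of 11 and 5 of 10 other settings. Ccr1 was well above background on 2 of the 12 arrays in the first difference, both of them BALB/c LDIR of 4 weeks.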

How the results depend on the processing

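The numbers of the 9 genes called depended on the processing, and the cause was not tested where none is given. With normexp background correction 0 genes were called at 2 weeks, 0 at 4 weeks, 0 between sham glands of 4 and 2 weeks, 0 for the LDIR change between strains, 0 for that between 4 and 2 weeks and 1 (Cx3cr1) for that between 8 and 4 weeks, and the increase of Ccr1 between sham glands of 4 and 8 weeks turned to -0.23. With detected probes only, which drops Ccr1 and Cxcr5, 1 gene was called at 2 weeks, 1 at 4 weeks, 2 between sham glands of 8 and 4 weeks, 0 for the change between strains and 1 between 4 and 2 weeks. With all 24 arrays in one fit 1 gene was called at 2 weeks, 1 at 4 weeks, 1 over all times, 1 between strains in LDIR glands, 3 between sham glands of 8 and 4 weeks and 1 for the change between 4 and 2 weeks. With slide as a block in that fit 1 was called at 2, 1 at 4 and 1 at 8 weeks, 1 over all times, 0 between sham glands of 4 and 2 weeks, 1 for the change between 4 and 2 weeks and 1 between 8 and 4 weeks. Quantile normalisation called 1 (Ccr1) between strains in LDIR glands and 0 between sham glands of 4 and 2 weeks, the methods' t-test 0 in the latter, and the deposited log2 values 2 between sham glands of 8 and 4 weeks. Without the 3 arrays of high B cell markers 1 was called at 8 weeks (Ccr7), 2 between sham glands of 8 and 4 weeks and 2 for the change between strains.

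With single arrays left out, the numbers ranged from 0 to 1 between strains in LDIR glands, 2 to 3 at 2 and at 4 weeks, 0 to 1 at 8 weeks, 0 to 3 in SPRET/EiJ, 0 to 1 between sham glands of 4 and 2 weeks, 1 to 3 between those of 8 and 4 weeks, 1 to 4 for the change between strains, 2 to 3 between 4 and 2 weeks and 2 to 3 between 8 and 4 weeks. A group with 1 array left out has 2 arrays, and the spread was pooled over the arrays that remained.

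With the replicate letter as a block 2 genes were called at 2 weeks, 2 at 4 weeks and 2 for the change between 8 and 4 weeks, where Ccr3 (-1.25, unadjusted p = 0.064, limma) and the second Cx3cr1 probe (1.03) were no longer called. No other call of a receptor changed with the block, and only at 2 weeks did the letters meet the test of pairing. Signals near background limit Ccr1, Cxcr5 and Ccr4 most.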
